A study of Mus musculus with 6 samples.

Results

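The Polycomb group genes measured here are 31 genes that encode subunits of the Polycomb repressive complexes PRC1 and PRC2. They were found by gene name on the array, with Kdm2b also searched under its older name Fbxl10, which gave 61 probes, and each gene was represented by its brightest probe over the 6 arrays. The whole table held 19371 genes after a filter on dim probes, and 30 of the 31 Polycomb genes were among them. Phc3, a Polyhomeotic subunit of PRC1, was the exception: its brighter probe was well above background on Thoc2 siRNA replicate 1 and Thoc5 siRNA replicate 2 and not on the other arrays, and its second probe on none.

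The cells were J1, a mouse embryonic stem cell line, grown in ESGRO medium and held in M10 medium while they were transfected with siRNA. The 3 groups received non-targeting (NT) siRNA, Thoc2 siRNA or Thoc5 siRNA, with 2 arrays each, and RNA was collected 96 h later. All groups were transfected, and no untransfected cells were analysed here. Thoc2 and Thoc5 are subunits of the THO complex, which couples transcription to the packaging and nuclear export of mRNA. The comparisons ask how the steady level of each mRNA differed after either siRNA, and total RNA does not show where in the cell an mRNA was. The labels do not say that the arrays of a group came from separate cultures, so the p-values measure the spread between these arrays, which may be technical.

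PRC2 places the methyl marks on lysine 27 of histone H3, through the catalytic subunits Ezh2 and Ezh1 held by Eed and Suz12. PRC1 places ubiquitin on histone H2A through Ring1 or Rnf2 paired with a PCGF protein; canonical PRC1 binds methylated H3 through a CBX protein, and variant PRC1 contains Rybp or Yaf2. In embryonic stem cells both complexes sit on the promoters of developmental genes, most of them rich in CpG.

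A level is the log2 signal of a probe on an array less the 75th percentile of that array, so that 0 is the percentile itself. Each error is the SE from limma, with n = 2 arrays per group. The array signal at the 75th percentile ran from 306 to 905, with Thoc5 siRNA replicate 1 the dimmest, and 56.7% to 79.7% of probes were well above background. Thoc2 siRNA replicate 1 had 880 outlier spots, where the other 5 arrays had 63 to 155, and its scan was made on another day. Thoc2 mRNA was at 55.0% of NT with Thoc2 siRNA (log2 difference -0.86 ± 0.28, adjusted p = 0.304) and at 101% with Thoc5 siRNA. Thoc5 mRNA was at 41.4% of NT with Thoc5 siRNA (-1.27 ± 0.27, adjusted p = 0.130) and at 111% with Thoc2 siRNA. All 8 embryonic stem cell markers examined, Pou5f1 and Nanog among them, were well above background on all 6 arrays. Their summed level is the log2 of the sum of their unlogged levels. It was 9.96 and 10.04 on the NT arrays, 9.68 and 9.73 under Thoc2 siRNA and 9.97 and 9.63 under Thoc5 siRNA. Dppa5a has the largest part in that sum, at 9.21 and 9.35 on the NT arrays and 9.40 and 9.03 under Thoc5 siRNA. Pou5f1 was at 4.56 and 4.18 on the NT arrays, 4.12 and 3.78 under Thoc2 siRNA and 3.43 and 3.56 under Thoc5 siRNA.

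Bmi1, Cbx8, Aebp2, Pcgf2, Phf1 and Kdm2b stood above NT, Bmi1 at 202% of NT with Thoc5 siRNA, and Rbbp7, Phc1 and Cbx2 stood below. Pcgf2, Phf1 and Rbbp7 were each read by 1 probe, so no other probe could be set beside it. Of the catalytic and scaffold subunits, Ezh2, Eed, Suz12 and Rnf2 differed from NT by at most 0.23 on the log2 scale. The catalytic subunits Ring1 and Ezh1 went past that, Ring1 at 0.33 with Thoc2 siRNA and Ezh1 at 0.28 with Thoc5 siRNA. Under normexp, another background correction, Suz12 was at -0.67 and Ezh2 at -0.38 with Thoc2 siRNA, and Rnf2 at -0.48 with Thoc5 siRNA. None of these differences passed the threshold: at a Benjamini-Hochberg adjusted p under 0.05 in limma, 0 of the 30 Polycomb genes and 0 of all genes were called in any of the 4 comparisons, a background of 0% in each. At an unadjusted limma p under 0.05, 5 of 30 Polycomb genes differed between Thoc2 siRNA and NT, against 14.5% of all genes, and 4 of the 5 were higher. Between Thoc5 siRNA and NT the count was 7 of 30, 4 higher and 3 lower, against 19.4% of all genes. For the mean of both siRNAs against NT it was 7 of 30, 6 higher and 1 lower, against 19.1%. By direction, 4 Polycomb genes were higher and 1 lower with Thoc2 siRNA, where 8.06% of all genes were higher and 6.46% lower. With Thoc5 siRNA 4 were higher and 3 lower, where 7.39% were higher and 12% lower. For the mean of both, 6 were higher and 1 lower, where 8.81% and 10.3% were. Each total lies near the background of all genes; the widest gap by direction was 20% of the Polycomb genes against 8.81% of all genes for higher over both siRNAs. That count of 6 higher was 5 after cyclic loess normalization, 3 after quantile normalization, 4 with the deposited series table and 0 under normexp. In each of these 1 was lower. Over all 19370 genes tested the count higher was 1707, and 1743, 1519, 1533 and 818 in the same order of settings. The comparisons share the NT arrays, so their values are given side by side and not as support for each other.

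The median log2 difference of the 30 genes was -0.11 for Thoc2 siRNA, where that of all genes was 0.06, and leaving out 1 array at a time moved it between -0.11 and -0.02, the latter without Thoc2 siRNA replicate 2. For Thoc5 siRNA it was -0.01, where that of all genes was -0.09, and it ran from -0.05 without NT replicate 1 to 0.06 without NT replicate 2. Below 0 stood 19 of 30 with Thoc2 siRNA and 16 of 30 with Thoc5 siRNA, against 44.2% and 56.8% of all genes, and 19 of 30 for the mean of both, against 50.7%. These counts moved with the scaling: after quantile normalization 18 of 30 were below 0 with Thoc2 siRNA, against 51.1% of all genes, and 13 of 30 with Thoc5 siRNA, against 52.8%. After cyclic loess normalization the count for Thoc5 siRNA was 12. Between Thoc5 and Thoc2 siRNA 16 of 30 stood below 0, against 65% of all genes. The 2 arrays of Thoc2 siRNA lay both above the NT arrays in 9 of 30 Polycomb genes and both below in 7, against 26.1% and 20.9% of all genes. For Thoc5 siRNA the counts were 7 above and 8 below, against 21.7% and 31.1%. Over all 4 siRNA arrays they were 6 above and 5 below, against 14.3% and 16.3%. Thoc5 siRNA lay above Thoc2 siRNA in 7 and below in 9, against 13.2% and 32.6%. Among these shares of genes whose groups did not overlap, the widest gap was 23.3% of the Polycomb genes against 13.2% of all genes, for Thoc5 siRNA above Thoc2 siRNA. The Polycomb genes lay on both sides of NT, as all genes did, and for some of them the side moved with the scaling or the probe.

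**Figure D1:**
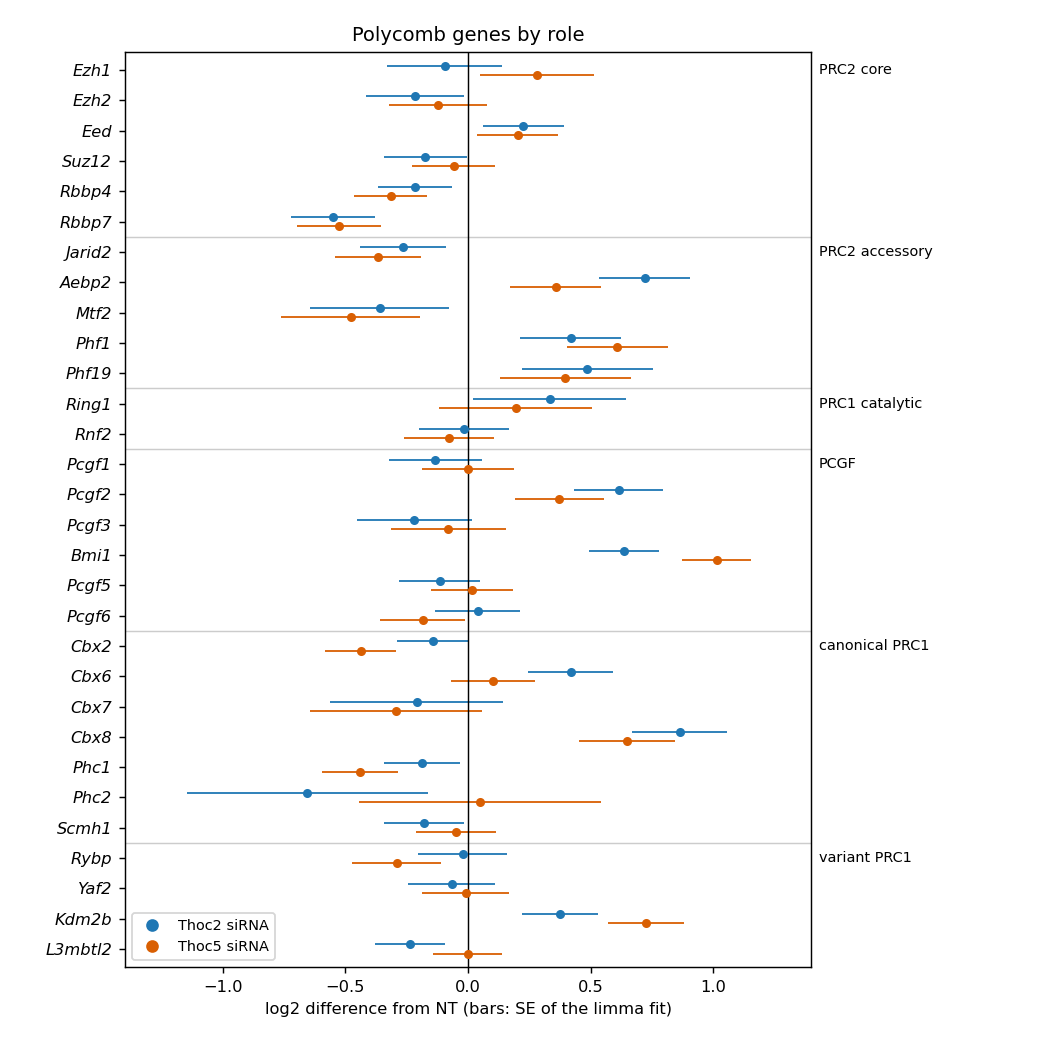
Log2 difference from NT (horizontal axis) of the 30 Polycomb genes tested, grouped by role, with Thoc2 siRNA in blue and Thoc5 siRNA in orange; bars show the SE from limma, 2 arrays a group. Cbx8 is farthest to the right for Thoc2 siRNA (0.86) and Bmi1 for Thoc5 siRNA (1.01), Rbbp7 lies to the left for both siRNAs, while Ezh2, Eed, Suz12 and Rnf2 lie within 0.23 of 0.

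Among the 6 core genes of PRC2, Rbbp7, a histone-binding WD40 protein also found in other chromatin complexes, stood farthest from NT. Its level was 5.51 and 5.82 on the NT arrays, 5.18 and 5.05 under Thoc2 siRNA and 5.15 and 5.13 under Thoc5 siRNA. Every siRNA array was below both NT arrays. The log2 difference was -0.55 ± 0.17 for Thoc2 siRNA (68.3% of NT, unadjusted p = 0.0277, adjusted p = 0.290) and -0.53 ± 0.17 for Thoc5 siRNA (69.4% of NT, adjusted p = 0.213). Within the slide that held NT replicate 1 and Thoc2 siRNA replicate 2 it was -0.46, and within the slide of NT replicate 2 and Thoc5 siRNA replicate 2 it was -0.69. Under normexp, which moved the median of all genes to 0.29 and 0.25, the differences were -0.996 and -0.901.

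The methyltransferase Ezh2 differed by -0.22 with Thoc2 siRNA and -0.12 with Thoc5 siRNA. Its levels were 3.46 and 3.07 on the NT arrays, 3.16 and 2.93 under Thoc2 siRNA and 3.17 and 3.11 under Thoc5 siRNA, so the groups overlapped. Its paralog Ezh1 differed by -0.10 and 0.28, with the Thoc2 siRNA value turning to 0.68 under normexp background correction. Eed, which binds methylated H3, was at 0.23 and 0.20, and Suz12, the scaffold, at -0.17 and -0.06. Those signs were not stable: Eed stood at -0.05 and -0.06 under normexp, and Suz12 at 0.02 for Thoc5 siRNA after quantile normalization. Rbbp4, the close relative of Rbbp7, was at -0.22 and -0.31 on its brightest probe. Of the 6 core genes, 1 was lower at an unadjusted p under 0.05 in each comparison with NT and 0 were higher, where 6.46% of all genes were lower with Thoc2 siRNA, 12% with Thoc5 siRNA and 10.3% for the mean of both.

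The accessory subunits of PRC2 fell on both sides of NT. Aebp2, a zinc finger subunit that marks the PRC2.2 form, had levels of -2.61 and -2.29 on the NT arrays, -1.65 and -1.81 under Thoc2 siRNA and -2.01 and -2.18 under Thoc5 siRNA. Both siRNA groups lay above the NT arrays without overlap. The log2 difference was 0.72 ± 0.19 for Thoc2 siRNA (165% of NT, unadjusted p = 0.0142, adjusted p = 0.249) and 0.36 ± 0.19 for Thoc5 siRNA (adjusted p = 0.377). The Thoc5 siRNA value was 0.20 without NT replicate 1, 0.11 within the slide of NT replicate 2 and Thoc5 siRNA replicate 2, and 0.68 under normexp. A second Aebp2 probe gave 0.18 and 0.21.

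Phf1, a Polycomb-like protein that binds methylated lysine 36 of H3, was at -1.25 and -0.80 on the NT arrays, -0.68 and -0.52 under Thoc2 siRNA and -0.41 and -0.42 under Thoc5 siRNA. All 4 siRNA arrays were above both NT arrays. The log2 difference was 0.42 ± 0.21 for Thoc2 siRNA (adjusted p = 0.427) and 0.61 ± 0.21 for Thoc5 siRNA (153% of NT, unadjusted p = 0.0364, adjusted p = 0.224). Its size moved with the NT array left out: without NT replicate 1 the differences were 0.19 and 0.38, and without NT replicate 2 they were 0.64 and 0.83. Phf19, also a Polycomb-like protein, was at 0.49 and 0.40, with NT levels of -2.18 and -1.64. Mtf2, another Polycomb-like protein, was at -0.36 and -0.48 on its brightest probe, and its other 3 probes gave values between -0.27 and 0.01. Jarid2, which helps to recruit PRC2, was at -0.27 and -0.37 on its brightest probe. For the mean of both siRNAs against NT, 2 of 5 accessory genes, Aebp2 and Phf1, were higher at an unadjusted p under 0.05, where 8.81% of all genes were higher.

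The ubiquitin ligases of PRC1 gave no value at an unadjusted p under 0.05. Ring1, the nearer to it, was at -1.74 and -2.13 on the NT arrays, -1.89 and -1.31 under Thoc2 siRNA and -1.99 and -1.50 under Thoc5 siRNA. Each siRNA group overlapped the NT arrays. The differences were 0.33 ± 0.31 (adjusted p = 0.651) and 0.19 ± 0.31 (adjusted p = 0.783), and the sign for Thoc5 siRNA turned without NT replicate 2 (-0.0001) or without Thoc5 siRNA replicate 2 (-0.05). A second Ring1 probe gave 0.45 and 0.44. Rnf2, the ligase also called Ring1B, was at -0.01 and -0.08. Its NT levels of 2.76 and 2.75 lay inside the range of the Thoc2 siRNA arrays, 2.54 and 2.93.

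The PCGF proteins set the kind of PRC1. Bmi1, also named Pcgf4 and part of canonical PRC1 with its relative Pcgf2, had the smallest p of the 30 Polycomb genes tested in each comparison with NT. Its promoter is shown first because of that rank, and the promoters of Cbx8, also higher, and of Rbbp7 and Phc1, both lower, follow for comparison. These are the 150 bases before the annotated start in RefSeq on GRCm38.p6, read on the strand of the gene, with each CG dinucleotide in capitals. The regions are chr2:18676868-18677017 (plus strand), chr11:119040914-119041063 (minus), chrX:162760222-162760371 (plus) and chr6:122340228-122340377 (minus).
Bmi1: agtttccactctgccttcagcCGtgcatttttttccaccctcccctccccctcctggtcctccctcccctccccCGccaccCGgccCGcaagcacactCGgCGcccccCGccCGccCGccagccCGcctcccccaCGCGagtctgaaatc
Cbx8: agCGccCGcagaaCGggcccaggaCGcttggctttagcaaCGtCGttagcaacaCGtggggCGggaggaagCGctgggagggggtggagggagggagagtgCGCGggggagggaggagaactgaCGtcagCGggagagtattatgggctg
Rbbp7: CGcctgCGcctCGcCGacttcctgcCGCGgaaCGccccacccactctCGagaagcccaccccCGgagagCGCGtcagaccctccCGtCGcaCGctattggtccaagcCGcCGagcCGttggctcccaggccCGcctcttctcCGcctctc
Phc1: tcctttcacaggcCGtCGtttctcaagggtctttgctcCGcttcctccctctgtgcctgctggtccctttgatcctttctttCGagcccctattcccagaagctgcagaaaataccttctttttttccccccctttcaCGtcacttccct

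These stretches hold 12 CG dinucleotides for Bmi1, 13 for Cbx8, 19 for Rbbp7 and 5 for Phc1. The same stretches of the promoters of Kdm2b, also higher, hold 11, 17, 14 and 18. Those with 17 and 18, at chr5:122900368-122900517 and chr5:122900351-122900500, overlap for most of their length, and both promoters are counted in the shares below. Whether the count goes with the direction of the difference was not tested. RefSeq promoters of 300 bases were matched for 27 of the 31 genes, 39 promoters in all, and not for Pcgf1, Yaf2, Rybp and Cbx2. Their median was 24 CG dinucleotides, against 7 over all 32851 promoters, and the observed to expected ratio of CG exceeded 0.6 in 79.5% of them against 35.8% of all. Of the motifs searched on both strands, the GC box GGGCGG lay in 69.2% of the Polycomb promoters and 35.7% of all. The CCAAT box lay in 43.6% and 37.4%, and the E-box CACGTG in 17.9% and 7.15%. The GC box contains a CG dinucleotide, so its share and the CG content are not separate facts. The CRE TGACGTCA, the AP-1 site TGACTCA, the ETS core CCGGAAG, the E2F site TTTGGCGC and the NRF1 site were each in 1 Polycomb gene, and the YY1 core was in 0. For each of the former that is 2.56% of the Polycomb promoters. Of all promoters, 1.79% held the CRE, 5.2% the AP-1 site and 8.86% the ETS core. The E2F site lay in 0.51% of all, the NRF1 site in 1.005% and the YY1 core in 0.63%.

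The 2 probes of Bmi1 begin with the following 30 bases, and lie in the file's build mm7 at chr2:18751519-18751578 (the brighter) and chr2:18748838-18748897.
Bmi1 brighter probe: tggtgaatttaactcatttttctagacttt
Bmi1 second probe: gtacttacgatgcccagcagcaatgactgt

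On the brighter probe Bmi1 was at -4.06 and -3.91 on the NT arrays, -3.32 and -3.38 under Thoc2 siRNA and -2.95 and -2.99 under Thoc5 siRNA. The 3 groups did not overlap, with NT lowest and Thoc5 siRNA highest. The log2 difference was 0.64 ± 0.14 for Thoc2 siRNA (155% of NT, unadjusted p = 0.00833, adjusted p = 0.234) and 1.01 ± 0.14 for Thoc5 siRNA (202% of NT, unadjusted p = 0.00128, adjusted p = 0.101). With genes kept only when well above background on all 6 arrays, fewer genes were tested and Bmi1 passed for Thoc5 siRNA, with an adjusted p of 0.0397 at the same difference. In that setting 509 of all 15224 genes tested passed for Thoc5 siRNA (3.34%), and Bmi1 was the 1 Polycomb gene among them.

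The second Bmi1 probe gave the same order. Its levels were -4.79 and -5.32 on the NT arrays, -3.64 and -3.88 under Thoc2 siRNA and -3.17 and -3.38 under Thoc5 siRNA, differences of 1.30 and 1.78 from NT. Thoc5 siRNA against Thoc2 siRNA gave 0.38 ± 0.14 on the brighter probe (unadjusted p = 0.0495, adjusted p = 0.543), the 1 Polycomb gene of 30 at an unadjusted p under 0.05 there, against 9.17% of all genes (2.18% higher and 6.99% lower). That difference between the siRNAs turned to -0.04 under normexp background correction. For Thoc2 siRNA the difference from NT was 0.33 after quantile normalization and 1.29 under normexp, a wider range than the SE.

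Pcgf2, also called Mel18, was at -2.32 and -2.12 on the NT arrays, -1.50 and -1.71 under Thoc2 siRNA and -1.73 and -1.97 under Thoc5 siRNA. All siRNA arrays lay above both NT arrays. The differences were 0.61 ± 0.18 (153% of NT, unadjusted p = 0.0233, adjusted p = 0.278) and 0.37 ± 0.18 (adjusted p = 0.352). On their brightest probes the PCGF genes of variant PRC1 lay closer to NT. Pcgf1 was at -0.13 and 0.00, Pcgf3 at -0.22 and -0.08, Pcgf5 at -0.12 and 0.01, and Pcgf6 at 0.04 and -0.18. That closeness depended on the probe. Other probes reached 1.15 and 0.93 for Pcgf3, -1.44 and -0.82 for Pcgf5, and 0.42 and 0.33 for Pcgf6. Under normexp the Pcgf2 difference for Thoc5 siRNA was 0.63, and within the slide shared by NT replicate 2 and Thoc5 siRNA replicate 2 it was 0.15. For the mean of both siRNAs against NT, 2 of 6 PCGF genes, Bmi1 and Pcgf2, were higher at an unadjusted p under 0.05, where 8.81% of all genes were higher.

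**Figure D2:**
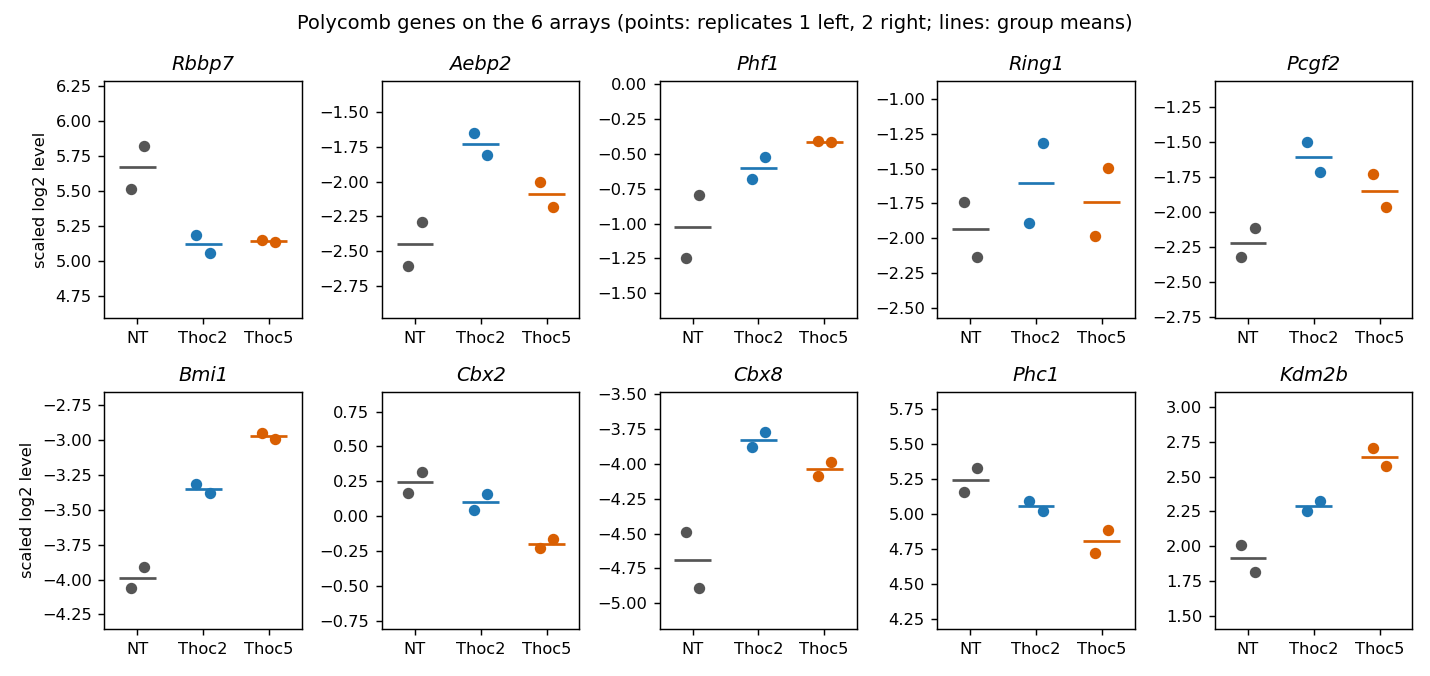
Scaled log2 level (log2 signal minus the array's 75th percentile) of 10 Polycomb genes on the 6 arrays; points are arrays, lines are group means, and each vertical axis has its own position and the same length. For Bmi1 the 3 groups do not overlap, from -4.06 on the lowest NT array to -2.95 on the highest Thoc5 siRNA array, while for Ring1 they do.

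The CBX proteins are the readers of canonical PRC1. Cbx8 was at -4.49 and -4.89 on the NT arrays, -3.88 and -3.77 under Thoc2 siRNA and -4.09 and -3.99 under Thoc5 siRNA. Every siRNA array was above both NT arrays. The differences were 0.86 ± 0.19 (182% of NT, unadjusted p = 0.00878, adjusted p = 0.234) and 0.65 ± 0.19 (157% of NT, unadjusted p = 0.0244, adjusted p = 0.193). The Thoc2 siRNA value was 0.43 after quantile normalization and 0.41 with the deposited series table, and under normexp the values were 1.27 and 1.17. A second Cbx8 probe, not well above background on Thoc5 siRNA replicate 1, gave 0.54 for Thoc2 siRNA and -0.52 for Thoc5 siRNA, so for Thoc5 siRNA the 2 probes lay on opposite sides of NT, and the mean of both was 0.07.

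Cbx2 was at 0.17 and 0.31 on the NT arrays, 0.04 and 0.16 under Thoc2 siRNA and -0.23 and -0.16 under Thoc5 siRNA. The 3 groups did not overlap, with Thoc5 siRNA lowest. The differences were -0.14 ± 0.15 (adjusted p = 0.679) and -0.44 ± 0.15 (73.8% of NT, unadjusted p = 0.0342, adjusted p = 0.218). Cbx7, the main CBX protein of PRC1 in embryonic stem cells, was at -0.21 and -0.29, with NT levels of 3.75 and 4.56 and siRNA arrays between 3.68 and 4.14. Cbx6 was at 0.42 and 0.10, and its other 2 probes gave 0.50 and 0.29 for Thoc2 siRNA.

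Among the Polyhomeotic proteins, which join PRC1 complexes through their SAM domains, Phc1 was at 5.16 and 5.33 on the NT arrays, 5.10 and 5.02 under Thoc2 siRNA and 4.72 and 4.89 under Thoc5 siRNA. The 3 groups did not overlap. The differences were -0.19 ± 0.15 (adjusted p = 0.606) and -0.44 ± 0.15 (73.6% of NT, unadjusted p = 0.0406, adjusted p = 0.236), and under normexp -0.44 and -0.79. Its other 2 probes gave -0.55 and -0.05 for Thoc2 siRNA and -0.46 and -0.15 for Thoc5 siRNA. Phc2 was at 0.56 on Thoc2 siRNA replicate 1 and between 1.81 and 2.04 on the other 5 arrays. Its difference of -0.66 ± 0.49 for Thoc2 siRNA therefore rests on that array, and on the slide that replicate 2 shares with NT replicate 1 it was 0.14. Scmh1, a SAM domain partner, was at -0.18 and -0.05.

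Of the variant PRC1 genes, Kdm2b, which binds unmethylated CpG and brings PRC1 to CpG islands, stood above NT on all 4 siRNA arrays. It was at 2.01 and 1.81 on the NT arrays, 2.25 and 2.32 under Thoc2 siRNA and 2.70 and 2.57 under Thoc5 siRNA. The 3 groups did not overlap. The differences were 0.37 ± 0.15 (130% of NT, adjusted p = 0.372) and 0.73 ± 0.15 (165% of NT, unadjusted p = 0.00711, adjusted p = 0.130), and the latter had an adjusted p of 0.0437 with an intensity trend and robust variances, a setting in which 660 of all genes passed (3.41%) and Kdm2b was the 1 Polycomb gene among them. Under normexp the Thoc5 siRNA difference was 0.43. A second probe, next to the first at chr5:122105624-122105683 in mm7, gave 0.36 and 0.69. The last, at the higher coordinates chr5:122175253-122181967, gave 1.03 and 0.93. It has 60 bases, and its position spans 6715. Yaf2 and L3mbtl2 were at -0.07 and -0.24 with Thoc2 siRNA and at -0.01 and -0.00 with Thoc5 siRNA.

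Several genes had probes that disagreed. Of the 18 Polycomb genes with more than 1 probe past the filter, all probes had the same sign in 11 for Thoc2 siRNA and in 10 for Thoc5 siRNA. Rybp, the subunit that defines variant PRC1, was at -0.02 and -0.29 on its brighter probe and at 0.55 and 0.64 on the other, whose levels of 1.80 and 1.81 on the NT arrays lay below all 4 siRNA arrays, 2.18 to 2.52. Jarid2 was at -0.27 and -0.37 on the brighter probe and at 0.35 and 0.41 on the next. The first 30 bases of these probes are given because each pair reads a different stretch of the same gene: the Rybp probes lie at chr6:100317107-100317166 and chr6:100320212-100320271, and those of Jarid2 at chr13:44370473-44370532 and chr13:44369631-44369690, in mm7.
Rybp brighter probe: aatggagctgaacagtttctaacgcgcaag
Rybp second probe: agcagtgaatgatgaatctttctgagattg
Jarid2 brighter probe: tgtttccctcacacttagagccactaagtc
Jarid2 second probe: ctttgcactagctctaaagaagaatttctt

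No annotation in mm7 was used here, so the exon or untranslated region that each probe reads is not given. Rbbp4 had 4 probes, at -0.22, 0.05, -1.15 and 0.48 for Thoc2 siRNA, and Pcgf5 was at -0.12 on its brighter probe and -1.44 on a dim one. For these genes no single difference describes the mRNA.

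**Figure D3:**
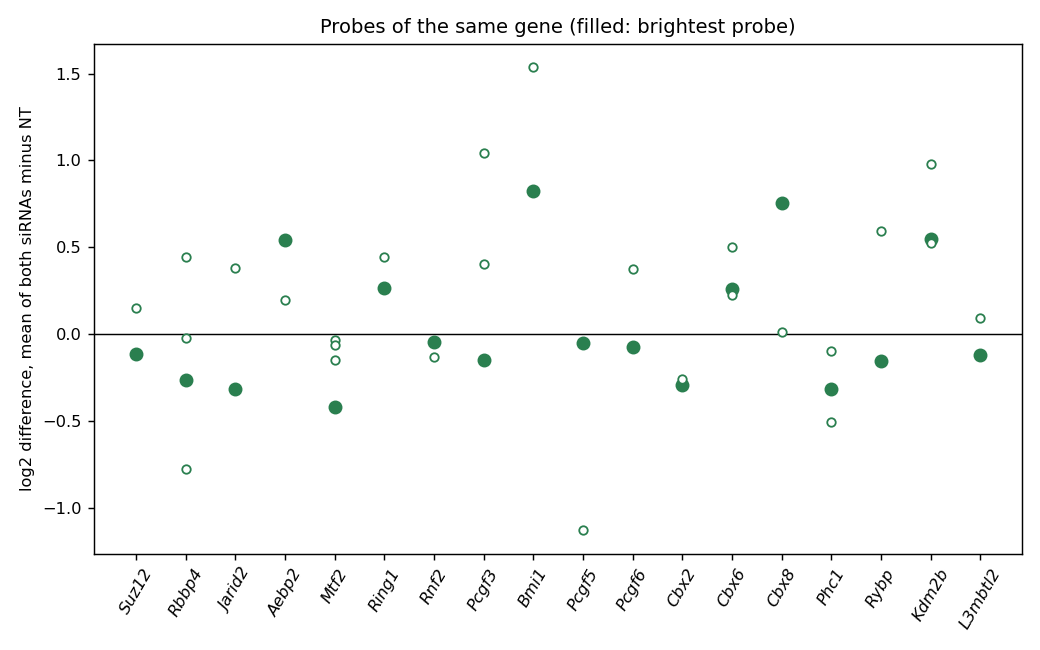
Log2 difference of the mean of both siRNAs from NT (vertical axis) for every probe past the filter of the 18 Polycomb genes with more than 1; filled points are the brightest probe. The 2 Bmi1 probes (0.83 and 1.54) and the 3 Kdm2b probes lie above 0, while those of Rybp and Jarid2 lie on both sides.

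The genes that stood higher had mostly dim probes and those that stood lower mostly bright ones, so each was set beside the genes nearest to it in mean level, 500 on either side. For Thoc2 siRNA the nearest genes had a median of 0.21 for Bmi1, whose own value was 0.64, and of 0.29 for Cbx8, whose own value was 0.86. For Thoc5 siRNA those medians were -0.12 and -0.19, where Bmi1 was at 1.01 and Cbx8 at 0.65. For Aebp2, Pcgf2, Phf1, Kdm2b, Rbbp7, Phc1 and Cbx2 the nearest genes lay between -0.10 and 0.04 in either comparison. These medians come without the spread of the nearest genes and are no test. The part of signal intensity in the differences was not tested.

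**Figure D4:**
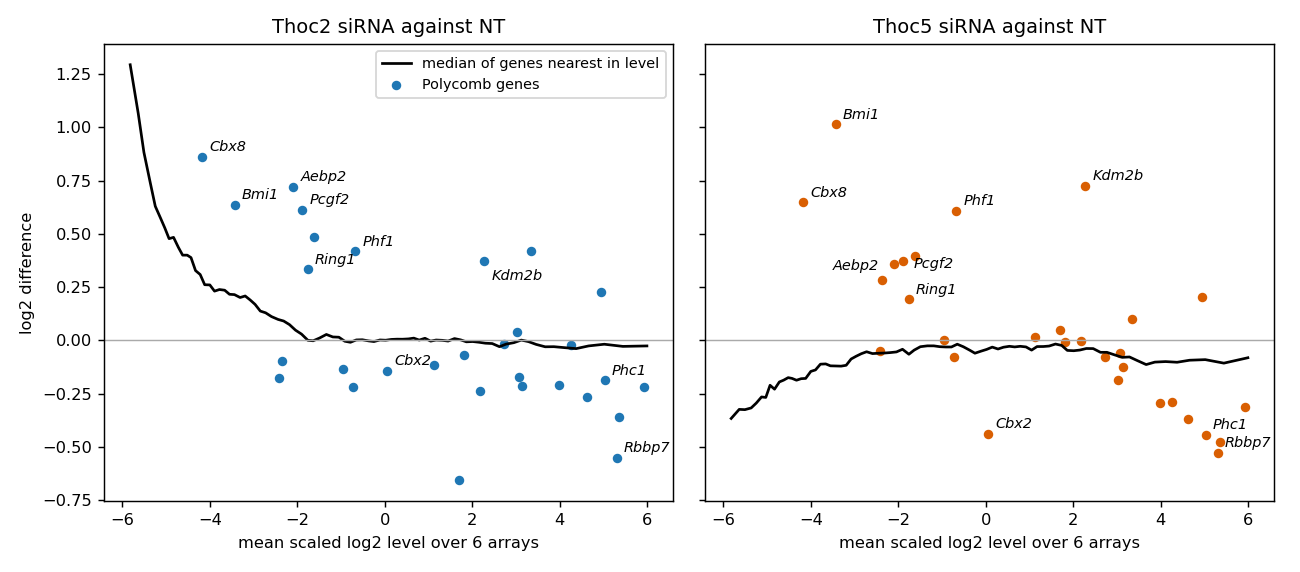
Log2 difference from NT (vertical axis) against mean scaled log2 level over the 6 arrays (horizontal axis) for the Polycomb genes, with Thoc2 siRNA on the left and Thoc5 siRNA on the right; the black line is the median of the genes nearest in level. The line is above 0 for dim genes with Thoc2 siRNA and below 0 with Thoc5 siRNA, and Bmi1 and Cbx8 lie above it in both panels.

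Of 34 other Polycomb subunits tested, from a list of 37 that holds further partners of PRC1, PRC2 and the deubiquitinase complex, 5 were higher and 2 lower at an unadjusted p under 0.05 with Thoc2 siRNA, and 3 were higher and 4 lower with Thoc5 siRNA. The shares of all genes were 8.06% higher and 6.46% lower for Thoc2 siRNA, against 7.39% and 12% for Thoc5 siRNA. The medians of the list were 0.00 and -0.06. Foxk1, a forkhead protein found with the BAP1 deubiquitinase, was at 0.70 ± 0.13 (adjusted p = 0.222) and 1.14 ± 0.13 (adjusted p = 0.101). Auts2, a partner of Pcgf3 and Pcgf5 complexes, was at -0.77 ± 0.19 (adjusted p = 0.246) and -1.16 ± 0.19 (adjusted p = 0.107). L3mbtl3, an MBT domain protein, was at 0.98 ± 0.25 (adjusted p = 0.247) and 0.90 ± 0.25 (adjusted p = 0.173).

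The Trithorax genes, which oppose Polycomb repression, and the H3K27 demethylases gave 1 higher and 0 lower of 19 with Thoc2 siRNA, and 1 higher and 1 lower with Thoc5 siRNA, each a smaller share than that of all genes. Ash1l, a lysine 36 methyltransferase, was at 0.32 ± 0.15 and 0.81 ± 0.15 (adjusted p = 0.422 and 0.118). Kmt2a was at 0.61 ± 0.17 and 0.28 ± 0.17, and Kmt2b, also a lysine 4 methyltransferase, at 0.34 ± 0.16 and 0.39 ± 0.16. Both medians of the list, 0.10 and -0.09, were within 0.1 of 0.

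Developmental genes that Polycomb complexes are known to occupy in embryonic stem cells gave 29 of 32 tested. At an unadjusted p under 0.05, 7 were higher and 1 lower with Thoc2 siRNA, and 5 higher and 0 lower with Thoc5 siRNA. Of all genes, 8.06% were higher and 6.46% lower for Thoc2 siRNA, against 7.39% and 12% for Thoc5 siRNA. The median log2 difference was 0.57 for Thoc2 siRNA, where the genes nearest in level had 0.20, and 0.36 for Thoc5 siRNA, where they had -0.11. These counts and medians describe the genes that passed the filter and are no test of the list: 10 of the 29 were not well above background on every array, and a gene kept through the group where it is high had to differ. Over the other 19, well above background on all 6 arrays, the medians were 0.52 and 0.36, where the genes nearest in level had 0.11 and -0.06, and 0.31 for the mean of both siRNAs. Of these 19, 4 were higher and 1 lower with Thoc2 siRNA, and 3 higher and 0 lower with Thoc5 siRNA. Wnt6, a secreted signalling protein, was at -1.34 and -1.16 on the NT arrays, 0.25 and 0.66 under Thoc2 siRNA and 0.69 and 0.75 under Thoc5 siRNA, differences of 1.70 ± 0.20 (adjusted p = 0.207) and 1.97 ± 0.20 (adjusted p = 0.101). Nkx2-2, a neural and pancreatic homeobox gene, was at -5.78 and -6.61 on the NT arrays, -4.78 and -4.46 under Thoc2 siRNA and -4.36 and -4.35 under Thoc5 siRNA. It was well above background on 1 of 2 NT arrays, so no size is given for its difference. Lhx5, a LIM homeobox gene, was at 0.80 ± 0.23 and 0.98 ± 0.23.

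**Figure D5:**
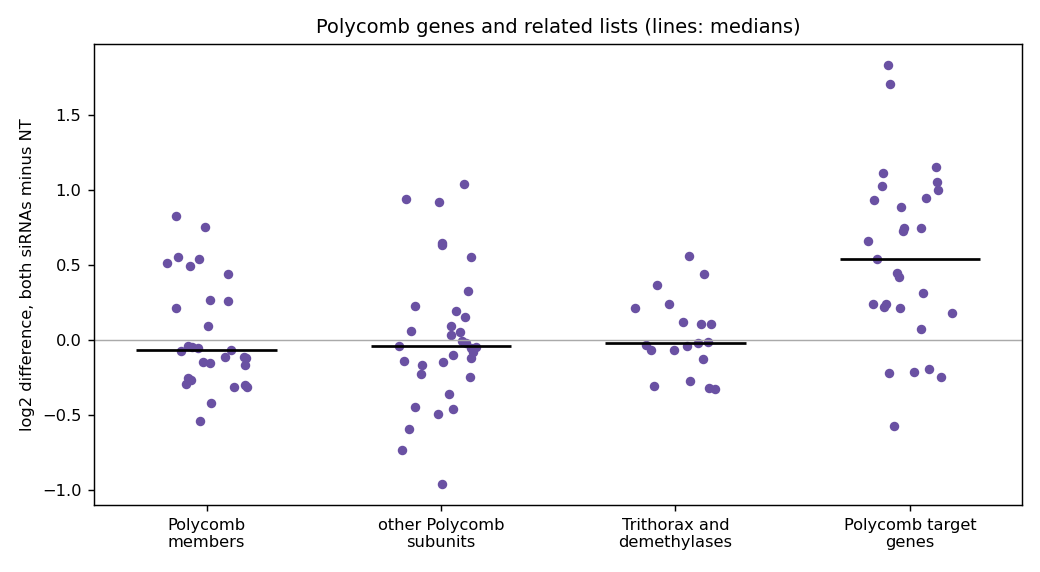
Log2 difference of the mean of both siRNAs from NT (vertical axis) for the 30 Polycomb genes tested, 34 other Polycomb subunits, 19 Trithorax and demethylase genes and 29 Polycomb target genes; each point is a gene, spread sideways for display, and lines are medians. The target genes have a median of 0.54 (0.31 over the 19 well above background on every array), and the other 3 groups have medians between -0.07 and -0.02.

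Each of the 8 embryonic stem cell markers was below 0 for either siRNA, with medians of -0.33 and -0.42, beside the lower values of Rbbp7, Phc1 and Cbx2. The target list shares Cdx2, Eomes and Hand1 with the trophectoderm markers, 5 of 7 well above background on all arrays. The summed level of these markers was 3.62 and 3.50 on the NT arrays, 3.09 and 3.19 under Thoc2 siRNA and 4.15 and 4.33 under Thoc5 siRNA. The keratins Krt8 and Krt18 carry that sum, with Krt18 at 2.97 and 2.91 on the NT arrays, 2.39 and 2.41 under Thoc2 siRNA and 3.36 and 3.82 under Thoc5 siRNA. The shared genes lay otherwise. Cdx2 was at -4.84 and -4.26 on the NT arrays, -3.49 and -3.67 under Thoc2 siRNA and -4.30 and -3.76 under Thoc5 siRNA. For Cdx2, Thoc5 siRNA replicate 1 thus lay just below NT replicate 2. Hand1 and Eomes stood above both NT arrays on all 4 siRNA arrays. Of the 6 trophectoderm markers tested, 4 were above 0 for Thoc2 siRNA, with a median of 0.37, and 6 for Thoc5 siRNA, with a median of 0.67. The target list shares Gata4, Gata6, Sox7 and Sox17 with the extraembryonic endoderm markers, 6 of 7 well above background on all arrays, whose summed level differed between the NT arrays themselves, 2.40 and -0.81. With Thoc2 siRNA it was 1.04 and 1.03 and with Thoc5 siRNA 2.87 and 0.98. Fibroblast and feeder markers, 5 of 9 well above background on all arrays, summed to 3.90 and 3.53 on the NT arrays, 3.76 and 3.64 under Thoc2 siRNA and 3.74 and 3.86 under Thoc5 siRNA. No marker of these lists was below background on every array, and in these bulk samples fewer cells of a type and less RNA per cell cannot be told apart. Their part in the differences of the Polycomb genes was not tested.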

How the data were processed

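Total RNA of 6 samples was measured on single-colour Agilent arrays, 2 each for NT, Thoc2 and Thoc5 siRNA. The deposited scanner output gives a background-subtracted intensity for every spot, per the file headers, which name Feature Extraction 9.5.3.1 where the submitters' processing notes have 11.0. The deposited series values are log2 with equal quantiles on all arrays, made in a way not given in the sources used here. They rank the probes as the scanner intensity does and served as an alternative.

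Levels were log2 signal less the array's 75th percentile, without control spots and outlier flags. A probe stayed if, in at least 1 group, every array had 0.5 or more of its spots well above background, and the brightest such probe stood for a gene. Names came from RefSeq on GRCm38.p6, and probe positions are in mm7, the build of the file headers. Tests used limma 3.58.1 in R 4.3.3 (tables read by the data.table package, version 1.17.8) on all 6 arrays, with 3 residual and 1.49 prior degrees of freedom, two-sided, adjusted by Benjamini-Hochberg over all genes, with a threshold of 0.05. With 2 arrays against 2, an exact permutation p is at least 0.333. The fit was tested on simulated data.

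Values per array are given for each Polycomb gene with an unadjusted p under 0.05 in any comparison and, in a role with none, for that with the smallest p; of the 3 related lists, the 3 genes with the smallest p over both siRNAs are named. Ezh2, Rnf2, Cbx7, Phf19, Phc2, Rybp and further probes were chosen after their values were seen. The Polycomb genes, lists and rule were chosen with earlier results of these data known. Alternatives were quantile, cyclic loess and normexp processing, other filters, the mean of probes, intensity trend, slide and replicate blocks, the series values and leaving out each array. Cyclic loess, the genes nearest in level and the list medians over genes well above background on all arrays were added after seeing the data. With 2 arrays a group, their number limits the precision.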

Additional observations from a re-analysis of the deposited data

How the results depend on the processing

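No Polycomb gene was called in the analysis as reported; with genes kept only if well above background on all 6 arrays, 1 was called for Thoc5 siRNA and 1 for both siRNAs (Bmi1, adjusted p = 0.0397 and 0.0433), where 509 and 438 of all genes were, and with an intensity trend and robust variances 1 for Thoc5 siRNA (Kdm2b, 0.0437), where 660 of all genes were, with 637 for both siRNAs and 4 for Thoc2 siRNA. At an unadjusted p under 0.05, the 5 genes for Thoc2 siRNA became 1 after quantile normalization, 1 under normexp, 1 with the deposited series table and 3 with cyclic loess; the 7 for Thoc5 siRNA became 0 under normexp and 4 without the filter on dim probes or with the mean of a gene's probes; the 1 between the siRNAs became 0 under normexp, without the filter and with a random slide block, and 2 with the mean of probes; the 7 for both siRNAs became 4 after quantile normalization and 1 under normexp. Normexp lowered the same counts over all genes, from 2814 to 837, 3765 to 986, 1776 to 43 and 3705 to 1388, where quantile normalization gave 2729, 3451, 1587 and 3565. For Thoc2 siRNA the share of all genes was 14.5% with the series table and 14% with cyclic loess. For Thoc5 siRNA it was 11.8% without the filter and 18.2% with the mean of probes. Between the siRNAs it was 5.64% without the filter, 9.52% with the slide block and 9.29% with the mean of probes. Of the 5 for Thoc2 siRNA 4 were higher, against 0 after quantile normalization and 2 of 3 with cyclic loess. Leaving out 1 array at a time moved the median difference of the Polycomb genes between -0.11 and -0.02 for Thoc2 siRNA. For Thoc5 siRNA it ran from -0.05 to 0.06, between the siRNAs from -0.08 to 0.06 and for both siRNAs from -0.11 to -0.01. The counts at an unadjusted p under 0.05 also moved, for the Polycomb genes and for all genes. Those counts are not given, because the fits without 1 array leave a lone array in a group and assume that it varies like the others. Of 660 values of the 10 genes given per array, 647 kept their direction and side of the threshold and 10 changed sign: Ring1 for Thoc5 siRNA without NT replicate 2 (-0.0001) or Thoc5 siRNA replicate 2 (-0.0499; -0.0499 to 0.4387 over the 6 arrays left out), and, between the siRNAs, Ring1 without Thoc2 siRNA replicate 2 (0.1491) or Thoc5 siRNA replicate 1 (0.1054; -0.427 to 0.1491 over the 6), Rbbp7 with the slide block (-0.0205) or without Thoc2 siRNA replicate 2 (-0.041; -0.041 to 0.0874 over the 6), Bmi1 under normexp (-0.0437) and Cbx8 after quantile (0.2688) or cyclic loess (0.14) normalization or with the series table (0.3203). The cause was not tested. Part of this agreement was fixed in advance, so the 647 is no measure of stability. The intensity trend leaves the differences as they are, and leaving out an array outside a comparison does not change its difference. With 0 genes called in the analysis as reported, no value could drop out of the calls. Normexp moved the median of all genes for both siRNAs against NT from -0.01 to 0.27, and leaving out the filter to 0.12. Same-numbered arrays deviated with correlations of -0.20, 0.14 and 0.22. With 2 arrays a group, these values cannot tell whether the replicate numbers pair the arrays, and the labels do not say so. A replicate block gave 4 Polycomb genes for Thoc5 siRNA and 0 between the siRNAs at an unadjusted limma p under 0.05. Of all genes it gave 16.9% and 7.9%.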
